A study of Mus musculus with 6 samples.

Results

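The genes examined here encode the cell adhesion molecules of 4 families, the laminins, the integrins, the cadherins and the protocadherins, in cultured mouse muscle stem cells (MuSCs). They were taken by their symbols, as every row of the deposited gene table whose symbol marks a laminin chain, an integrin subunit, a cadherin or a protocadherin. Cdh15, which encodes M-cadherin, and the proteins that only bind integrins were left out by the same rule. This gave 103 of 18943 genes, namely 11 laminin chains, 16 integrin alpha and 7 integrin beta subunits, 14 cadherins, 11 non-clustered protocadherins and 44 clustered protocadherins. All 103 were found in the mouse annotation on genome build GRCm38, and 47 of them lie on chromosome 18. The rule uses symbols and no measured value, although it was set with earlier results of these data known.

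RNA of wild-type MuSCs from C57BL/6 mice aged 8 weeks was sequenced in 6 libraries. The cells had been purified by fluorescence-activated sorting and were cultured for 5 days with the solvent DMSO, with endothelin-3 (ET-3) or with neurotensin (NT), with 2 libraries in each group. Both peptides act on G-protein-coupled receptors, and the labels give 100 nM for each, whereas the methods of the study name higher concentrations. The labels do not say whether the libraries of a group came from separate animals or cultures, so p-values measure the spread between these libraries, which may be technical.

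Laminins are trimers of an alpha, a beta and a gamma chain, and they form the sheet-like core of the basement membrane that wraps each muscle fibre and the MuSC beneath it. Integrins are receptors made of an alpha and a beta subunit that tie laminins and other matrix proteins to the actin skeleton of the cell. Cadherins join neighbouring cells through calcium-dependent contacts and are coupled to actin by catenins, and protocadherins are related surface proteins, many of which are encoded in a gene cluster where each gene has its own variable exon.

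The deposited values are read counts per gene that were multiplied by a factor for each library and rounded. They sum to between 4214458 and 4600575 per library, which corresponds to between 3628952 and 5396233 reads on genes. Values of the same gene can therefore be set side by side between libraries. Levels of different genes were ranked per kilobase (kb) of exon that no other gene shares. Sums, means and parts of a sum that are not given per kb were not adjusted for exon length. A gene was tested where its mean value over the 6 libraries reached 5, which left 83 of the 103 members and 13921 of all genes. A gene was called where limma gave an adjusted p no higher than 0.05 and a change of 2-fold or more in either direction, on the log2(value + 1) scale. For genes whose values lie between 0 and 3 in a group, the fitted fold change depends on the added 1 and is no bound.

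Markers of differentiating muscle moved with the groups. The 8 genes of that list, among them the myogenic regulator Myog and the fusion factor Mymk, summed to 12575 and 14006 in the DMSO libraries, to 174 and 199 under ET-3 and to 241 and 182 under NT, and 8 of 8 were called down under both ligands. The 8 MuSC and myoblast markers were listed and summed to between 6097 and 7814 in every library, although Calcr, the calcitonin receptor of quiescent MuSCs, lay between 0 and 3. Members of that list moved in opposite directions, as Cdh15 was called down under both ligands (log2 fold changes -1.80 and -1.82) and Pax7, the transcription factor that marks MuSCs, was higher at the adjusted p alone (0.86 and 0.76). Whether this change has a part in the results given here was not tested. In RNA from a whole culture, fewer cells of a type and less RNA per cell cannot be told apart.

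Both ligands lowered more of the adhesion genes than they raised. ET-3 called 31 of the 83 tested members down and 7 up, which is 37.3% and 8.43%, whereas 14.9% of all tested genes were called down and 6.62% up. NT called 25 down and 9 up, which is 30.1% and 10.8%, against 13.2% down and 7.3% up over all tested genes. The median log2 fold change of the members was -0.59 with ET-3 and -0.51 with NT, against -0.01 and -0.01 over all tested genes. All 4 treated libraries lay below both DMSO libraries for 48 of the 83 members and above them for 15, and the groups overlapped for 20. Over all tested genes, 36.4% lay below and 33.2% above in that way. The ET-3 and NT comparisons share the same DMSO libraries, so their values are given side by side and neither supports the other. Both ligands called 25 members down and 7 up in common, against 12.5% and 5.85% of all tested genes. Clustered protocadherins made up 16 of the 31 genes lowered by ET-3, and without this family 15 of 45 members were called down and 7 up. The remaining 20 members had values between 0 and 14 in every library and were not tested.

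The integrin that fell most was Itga4, the integrin that rose most was Itgb7 and the cadherin that rose most was Cdh6. Their promoter windows are shown so that the letters around the starts of these genes can be seen beside their opposite changes. Each window runs from 250 bases before to 50 bases after the gene start in RefSeq on GRCm38.p6 and is written 5′ to 3′ on the strand of the gene. Itga4 lies on the plus strand with its window at chr2:79255176-79255475, Itgb7 on the minus strand at chr15:102231886-102232185 and Cdh6 on the minus strand at chr15:13173626-13173925. The genes themselves span chr2:79255426-79333123 for Itga4 (ENSMUSG00000027009), chr15:102215995-102231944 for Itgb7 (ENSMUSG00000001281) and chr15:13028701-13173675 for Cdh6 (ENSMUSG00000039385). Capitals mark the E-box CAGCTG, the E-box variant CAGGTG and the GC box CCGCCC, each searched on both strands.
Itga4: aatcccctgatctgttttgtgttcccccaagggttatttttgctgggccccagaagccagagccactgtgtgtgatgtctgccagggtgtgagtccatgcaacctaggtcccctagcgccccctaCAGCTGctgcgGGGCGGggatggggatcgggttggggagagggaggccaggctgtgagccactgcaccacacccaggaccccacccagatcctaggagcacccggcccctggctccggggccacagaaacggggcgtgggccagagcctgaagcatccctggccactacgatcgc
Itgb7: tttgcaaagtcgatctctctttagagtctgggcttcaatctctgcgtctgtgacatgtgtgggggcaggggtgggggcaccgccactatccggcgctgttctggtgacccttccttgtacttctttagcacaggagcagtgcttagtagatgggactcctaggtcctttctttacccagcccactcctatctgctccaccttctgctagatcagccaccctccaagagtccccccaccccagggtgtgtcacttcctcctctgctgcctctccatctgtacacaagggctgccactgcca
Cdh6: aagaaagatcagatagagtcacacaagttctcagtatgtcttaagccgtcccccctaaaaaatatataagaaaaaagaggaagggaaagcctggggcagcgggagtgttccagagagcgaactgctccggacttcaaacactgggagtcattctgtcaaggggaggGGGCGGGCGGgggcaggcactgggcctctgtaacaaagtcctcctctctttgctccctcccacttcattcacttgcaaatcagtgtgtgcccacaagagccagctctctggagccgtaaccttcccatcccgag

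CAGCTG and CAGGTG are E-box sequences of the kind that the muscle regulators MYOD and MYOG bind, and CCGCCC is the GC box of many promoters. The Itga4 window holds CAGCTG at position -125 from the start and CCGCCC at -114, the Cdh6 window holds CCGCCC at -84 and at -80, and the Itgb7 window holds none of the 3 motifs. RefSeq windows were found for 37 of the 103 members, with 41 windows in all, and for 0 of the 44 clustered protocadherins. CAGCTG occurred in 3 of the 11 windows of members lowered under both ligands and in 0 of the 6 windows of members raised under both, and it occurred in 16.3% of 32851 windows of all genes. CAGGTG occurred in 3 of the same 11 windows and in 0 of the 6, and in 20.2% of all windows. CCGCCC occurred in 4 of the 11 and in 3 of the 6, against 35.7% of all windows. In the 24 windows of members that were not called the same way under both ligands, CAGCTG occurred in 5, CAGGTG in 7 and CCGCCC in 12. These matches describe the letters of the windows and do not show that a factor was bound.

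The laminin beta chains changed in different directions. Lamb2, the beta chain that is enriched at neuromuscular junctions, fell under both ligands, Lamb3 rose under NT, and Lamb1, the widely expressed beta chain, was slightly higher. Of the 8 tested chains, 3 were called down under each ligand, and 0 were called up with ET-3 and 1 under NT. The shares over all tested genes were 14.9% down and 6.62% up with ET-3, and 13.2% down and 7.3% up with NT. Lamb2 (ENSMUSG00000052911, chr9:108479736-108490530) had values of 1147 and 1129 under DMSO, 477 and 462 under ET-3, and 481 and 495 under NT. The treated libraries lay close together and far below both controls, at 2.42-fold lower with ET-3 (log2 fold change -1.28, SE 0.05, adjusted p = 1.24e-08) and 2.33-fold lower with NT (-1.22, SE 0.05, adjusted p = 1.92e-08). Lamb1 had 1233 and 1164 under DMSO, 1487 and 1438 under ET-3, and 1468 and 1426 under NT. All treated libraries were above the controls, and the log2 fold changes of 0.29 and 0.27 passed the adjusted p without reaching the fold threshold.

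Lamb3, a chain of epithelial laminins, had values of 245 and 225 under DMSO, 409 and 443 under ET-3, and 509 and 499 under NT, and is named here after its values were seen. It rose 2.14-fold with NT (log2 fold change 1.10, adjusted p = 3.74e-07) and was 1.81-fold higher with ET-3 (0.86, adjusted p = 1.99e-06), and the direct comparison of the ligands did not pass the threshold (0.24, adjusted p = 0.0815). Per kb, Lamb2 held 53.9% and 55.1% of the summed level of the 3 beta chains with DMSO and between 26.0% and 27.1% in the treated libraries. The share of Lamb1 was 35.5% and 34.8% with DMSO and between 47.8% and 51.7% after treatment, and that of Lamb3 was 10.6% and 10.1% before and between 21.3% and 25.3% after. In the plot of shares per kb, Lamb1 takes the place of Lamb2 as the leading chain.

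The 3 tested alpha chains were lower after treatment, and Lama4 alone was called down under both ligands. Lama2, the main alpha chain of the muscle basement membrane, had values of 979 and 945 under DMSO, 483 and 486 under ET-3, and 575 and 640 under NT. It was 1.99-fold lower with ET-3 (log2 fold change -0.99, adjusted p = 2.81e-07), just short of the fold threshold, and 1.58-fold lower with NT (-0.66, adjusted p = 4.89e-06). Without the second DMSO library, Lama2 was called down with ET-3. Lama5, which had the highest level per kb of the alpha chains and is known from developing and regenerating muscle, had 2038 and 2231 under DMSO, 1419 and 1471 under ET-3, and 1646 and 1566 under NT, giving log2 fold changes of -0.56 and -0.41. Lama4, a chain of vessels and peripheral nerve, had 23 and 31 under DMSO but 2 and 1 under ET-3 and 1 and 0 under NT. It was called down under both ligands (fitted log2 fold changes -3.50 and -4.29, adjusted p = 1.57e-04 and 3.92e-05). Summed over the alpha chains, the level per kb was 243 and 259 under DMSO, 156 and 161 under ET-3, and 182 and 179 under NT, of which Lama5 held between 73.6% and 80.1% in every library.

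Lamc1 is the gamma chain common to most laminins. Its values were 1363 and 1302 under DMSO, 1431 and 1354 under ET-3, and 1421 and 1403 under NT, and the ET-3 libraries overlapped with the controls while the NT libraries lay above them. The log2 fold changes of 0.06 and 0.08 did not pass the test (adjusted p = 0.253 and 0.138). Lama1, Lama3 and Lamc3 did not exceed 11 in a library.

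**Figure D1:**
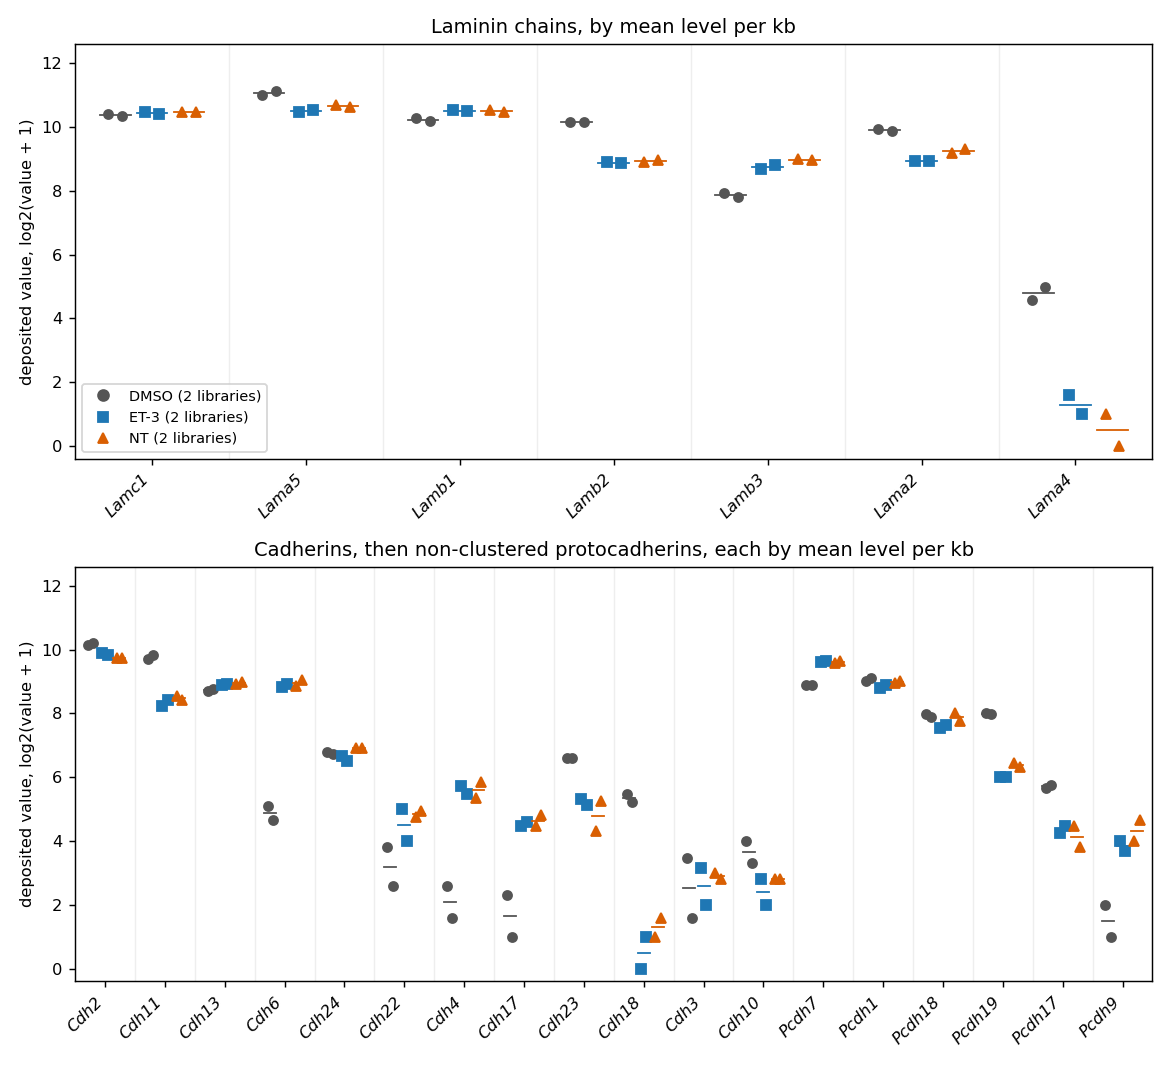
Deposited values on the log2(value + 1) scale (vertical axis) for 7 laminin chains (upper panel) and for the 12 tested cadherins and 6 tested non-clustered protocadherins (lower panel), ordered within a family by mean level per kb. Each point is a library, short lines are group means, and grey circles, blue squares and orange triangles stand for DMSO, ET-3 and NT. The treated points of Lamb2, Lama4, Cdh11, Cdh18 and Pcdh19 lie below the DMSO points and those of Lamb3, Cdh6, Cdh4 and Pcdh7 above them.

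Integrin alpha subunits of the laminin receptors were lowered in part. Itga7, the laminin-binding alpha subunit typical of muscle and the alpha subunit with the highest mean level per kb, had values of 2427 and 2651 under DMSO, 2269 and 2199 under ET-3, and 1954 and 1851 under NT. Its log2 fold change was -0.18 with ET-3 (adjusted p = 0.0111) and -0.42 with NT (adjusted p = 6.80e-05), with treated libraries below the controls but far from the fold threshold. The ET-3 value passed the adjusted p under 9 of 15 alternatives. Itga6, another laminin-binding subunit, had 2050 and 2041 under DMSO, 1211 and 1176 under ET-3, and 1204 and 1234 under NT, and was lower by 1.71-fold and 1.68-fold (log2 fold changes -0.78 and -0.75, adjusted p = 1.43e-07 and 2.05e-07). In contrast, Itga3, the third laminin-binding subunit detected, was higher after treatment, with 608 and 577 before, 805 and 763 under ET-3, and 716 and 719 under NT. Its log2 fold changes of 0.40 and 0.28 passed the adjusted p without reaching the fold threshold.

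The alpha subunits called down were Itga4, Itga9 and Itga10. They were 25% of the 12 tested, against 14.9% of all tested genes with ET-3 and 13.2% with NT. Itga4, which pairs with beta subunits to bind fibronectin and VCAM1, had values of 541 and 487 under DMSO, 14 and 12 under ET-3, and 13 and 7 under NT. It was 39.5-fold lower with ET-3 (log2 fold change -5.20, SE 0.27, adjusted p = 1.18e-07) and 51.4-fold lower with NT (-5.60, SE 0.27, adjusted p = 7.86e-08). Itga4 fell from 4.06% and 3.57% of the summed alpha subunit level per kb to at most 0.138% in a treated library. Itga9, a close relative of Itga4, had 40 and 49 under DMSO, 4 and 5 under ET-3, and 7 and 4 under NT, and fell 9.89-fold and 8.09-fold (log2 fold changes -3.05 and -2.84). Itga10, a collagen-binding subunit, had 98 and 103 under DMSO, 18 and 16 under ET-3, and 19 and 23 under NT, and fell 5.91-fold and 4.79-fold (-2.50 and -2.21). For these 3 subunits the treated libraries lay far below the controls.

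Other alpha subunits of fibronectin and vitronectin receptors changed less than these 3, and their beta subunits are described below. Itga5, the classical fibronectin receptor subunit, had 925 and 924 under DMSO, 622 and 606 under ET-3, and 676 and 622 under NT (log2 fold changes -0.59 and -0.51). Itgav, the alpha subunit shared by the vitronectin receptors and named after its values were seen, had 1229 and 1333, 898 and 918, and 976 and 968 in the same order (-0.49 and -0.40). Both passed the adjusted p and neither reached the fold threshold.

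Itga2, a collagen-binding subunit, was the one alpha subunit called up. It had values of 4 and 2 under DMSO, 61 and 46 under ET-3, and 47 and 72 under NT. It was 17.8-fold higher with ET-3 (log2 fold change 3.80, adjusted p = 5.53e-06) and 19.8-fold higher with NT (3.93, adjusted p = 4.68e-06), so that the collagen-binding subunits Itga2 and Itga10 moved in opposite directions. Itga1, Itga2b and Itga8 did not pass the test, with log2 fold changes between -0.79 and 0.12. Itgam, the leukocyte subunit, was not tested, with 14 and 7 in the DMSO libraries and 0 in all 4 treated libraries, and Itga11, Itgae and Itgal did not exceed 6. Per kb, the summed alpha subunits had 1040 and 1060 under DMSO, 792 and 767 under ET-3, and 754 and 736 under NT. Itga7 held 29% and 30.9% of that sum with DMSO and between 31.1% and 35.5% after treatment, and Itga3 held 10.3% and 9.53% before and between 16.6% and 17.8% after.

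**Figure D2:**
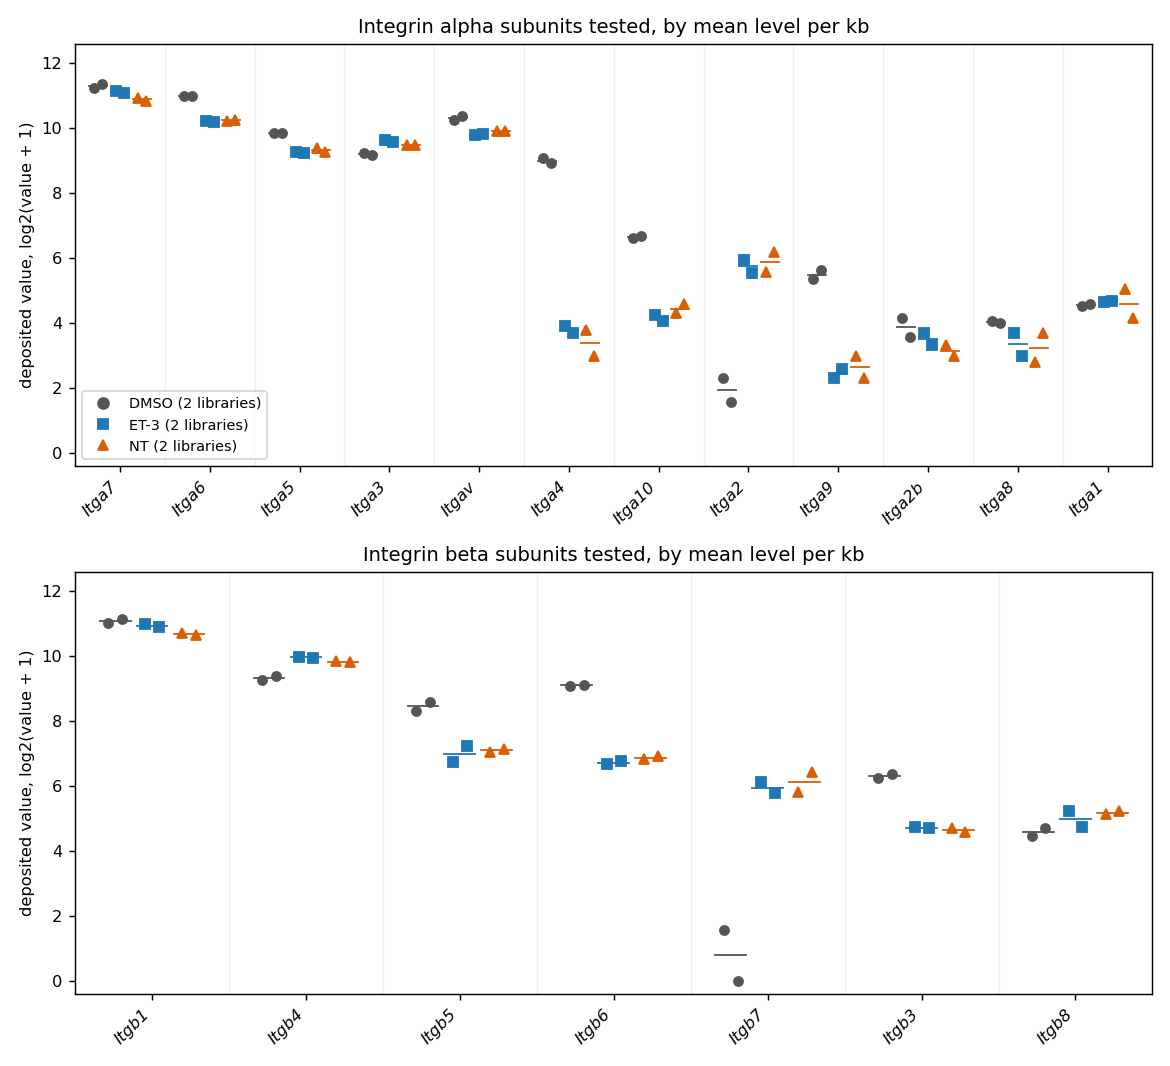
Deposited values on the log2(value + 1) scale (vertical axis) for the 12 tested integrin alpha subunits (upper panel) and the 7 integrin beta subunits (lower panel), ordered by mean level per kb. Points are single libraries, short lines are group means, and grey circles, blue squares and orange triangles stand for DMSO, ET-3 and NT. Itga4, Itga9, Itga10, Itgb5, Itgb6 and Itgb3 drop in all 4 treated libraries, Itga2 and Itgb7 rise, and the points of Itga7 and Itgb1 stay within a narrow band.

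Itgb1, the beta subunit that pairs with most alpha subunits, had the highest level per kb of all integrins. Its values were 2070 and 2243 under DMSO, 2035 and 1910 under ET-3, and 1679 and 1600 under NT. The log2 fold change was -0.13 with ET-3, which did not pass the test (adjusted p = 0.0585), and -0.39 with NT (adjusted p = 1.13e-04). Itgb1 held between 62.7% and 68.2% of the summed beta subunit level per kb in every library. Itgb4, the partner of Itga6 in hemidesmosomes, was higher after treatment, with 617 and 667 under DMSO, 1010 and 987 under ET-3, and 931 and 897 under NT. It was 1.56-fold and 1.42-fold higher (log2 fold changes 0.64 and 0.51, adjusted p = 2.60e-06 and 1.35e-05), and its share per kb was 12.1% and 12% with DMSO and between 21.3% and 22.6% after treatment.

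Of the 7 beta subunits, 3 were called down under both ligands, against 12.5% of all tested genes. Itgb6, which with Itgav activates latent transforming growth factor beta, had values of 547 and 557 under DMSO, 101 and 108 under ET-3, and 113 and 121 under NT, and fell 5.28-fold and 4.72-fold (log2 fold changes -2.39 and -2.23, adjusted p = 8.37e-09 and 1.44e-08). Itgb5, a vitronectin receptor subunit, had 319 and 387 under DMSO, 106 and 149 under ET-3, and 133 and 141 under NT, and fell 2.77-fold and 2.58-fold (-1.48 and -1.35). Itgb3 had 76 and 82 under DMSO, 26 and 25 under ET-3, and 25 and 23 under NT, and fell 3.10-fold and 3.29-fold (-1.59 and -1.68). The treated libraries of these 3 subunits did not overlap with the controls. Itgb8 did not pass the test, with log2 fold changes of 0.42 and 0.61 (adjusted p = 0.171 and 0.0592).

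Itgb7, the partner of Itga4 and Itgae on lymphocytes, went from 2 and 0 under DMSO to 69 and 54 under ET-3 and 56 and 86 under NT. It was called up under both ligands (fitted log2 fold changes 5.16 and 5.35, adjusted p = 6.60e-06 and 5.53e-06) while Itga4 was nearly lost and Itgae did not exceed 3. Of 10 leukocyte markers, 6 had a row in the table, and their sum was 88 and 102 under DMSO and between 209 and 233 after treatment. Laptm5 accounted for most of that sum, with 64 and 63 under DMSO and between 176 and 179 after treatment, while Fcer1g, Csf1r, Cd79a and Cx3cr1 did not exceed 13. Ptprc, Adgre1, Tyrobp and Cd3e were not analysed here, and the part of leukocytes in the rise of Itgb7 was not tested.

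**Figure D3:**
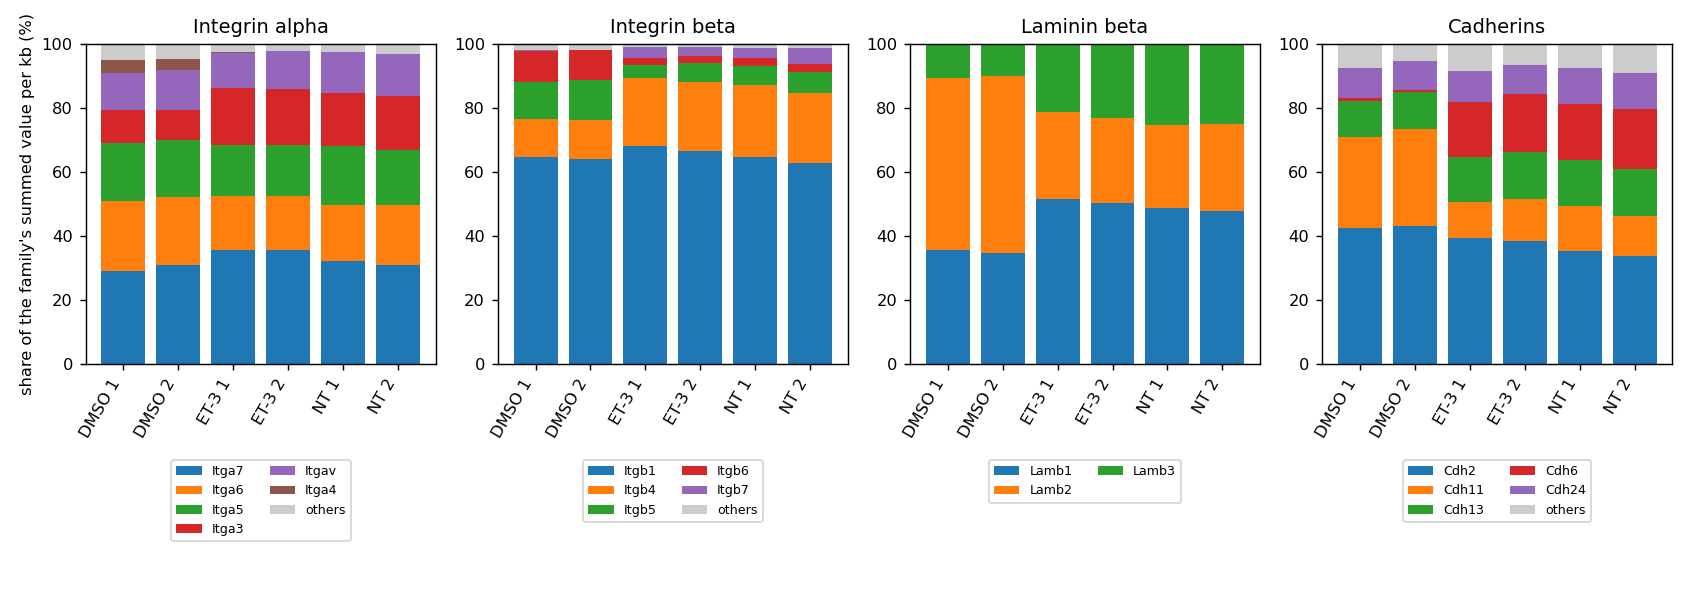
Share of each subunit or chain (vertical axis, percent of the summed value per kb of unshared exon) in the 6 libraries for the integrin alpha subunits, integrin beta subunits, laminin beta chains and cadherins. Genes that stay under 3% in every library are joined as others. Lamb2 holds more than Lamb1 in the DMSO libraries and less in the treated ones, the share of Itgb4 is larger after treatment and Cdh6 appears where Cdh11 shrinks.

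Cadherins changed in both directions. Of the 12 tested, 4 were called up under each ligand, and 4 were called down with ET-3 and 3 under NT. The shares over all tested genes were 6.62% up and 14.9% down with ET-3, and 7.3% up and 13.2% down with NT. Cdh2, which encodes N-cadherin, a main adhesion molecule between the MuSC and its fibre, had the highest level per kb, with 1136 and 1171 under DMSO, 942 and 911 under ET-3, and 851 and 843 under NT. It was 1.25-fold and 1.36-fold lower (log2 fold changes -0.32 and -0.44, adjusted p = 1.24e-04 and 1.15e-05). Cdh11, a cadherin of mesenchymal cells, had 838 and 901 under DMSO, 298 and 339 under ET-3, and 373 and 340 under NT, and fell 2.73-fold and 2.44-fold (-1.45 and -1.28, adjusted p = 1.24e-07 and 3.10e-07). Cdh13, a cadherin anchored in the membrane by a lipid, had 415 and 430 under DMSO, 474 and 483 under ET-3, and 487 and 502 under NT, giving log2 fold changes of 0.18 and 0.23 that passed the adjusted p alone.

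Cdh6, a cadherin known from developing kidney and nervous system, rose from 33 and 24 under DMSO to 456 and 485 under ET-3 and 466 and 526 under NT. It was 16.5-fold higher with ET-3 (log2 fold change 4.01, SE 0.13, adjusted p = 6.77e-09) and 17.4-fold higher with NT (4.09, SE 0.13, adjusted p = 7.11e-09), and every treated library lay far above the controls. Per kb, Cdh6 held 1.10% and 0.794% of the summed cadherin level with DMSO and between 17.0% and 18.9% after treatment, whereas the share of Cdh11 was 28.4% and 30.2% before and between 11.3% and 14.0% after. The summed cadherin level per kb was 331 and 335 under DMSO and between 293 and 308 after treatment.

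Further cadherins rose from low levels. Cdh4, or retinal cadherin, had values of 5 and 2 under DMSO, 52 and 43 under ET-3, and 40 and 57 under NT (log2 fold changes 3.51 and 3.52, adjusted p = 1.60e-05 and 1.64e-05). Cdh17, a cadherin of intestinal epithelium, had 4 and 1 under DMSO, 21 and 23 under ET-3, and 21 and 27 under NT (2.86 and 2.97). Cdh22 had 13 and 5 under DMSO, 31 and 15 under ET-3, and 26 and 30 under NT (1.3 and 1.66), and was not called with ET-3 when either the second DMSO, the first ET-3 or either NT library was left out, nor with NT without the second DMSO library or either NT library.

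Of the cadherins that fell, Cdh18 had 43 and 36 under DMSO, 0 and 1 under ET-3, and 1 and 2 under NT (fitted log2 fold changes -4.83 and -4.04, adjusted p = 1.23e-05 and 4.70e-05). Cdh23, the tip-link cadherin of inner ear hair cells, had 97 and 97 under DMSO, 39 and 34 under ET-3, and 19 and 37 under NT, and fell 2.66-fold and 3.46-fold (-1.39 and -1.83). With ET-3, the call of Cdh23 was lost when either DMSO library was left out. Cdh10 was called down with ET-3 (-1.26, adjusted p = 0.0263) and not with NT (-0.85, adjusted p = 0.109), on values of at most 15, and the ligands did not differ in the direct test (0.40, adjusted p = 0.657). The ET-3 call of Cdh10 was lost without the first DMSO, the second ET-3 or either NT library. Cdh3 and Cdh24 did not pass the test, and Cdh1 and the endothelial cadherin Cdh5 did not exceed 5 in a library.

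The non-clustered protocadherins that were well expressed moved little or in opposite directions. Pcdh7 had values of 469 and 472 under DMSO, 780 and 790 under ET-3, and 761 and 799 under NT, and was 1.67-fold and 1.66-fold higher on the group means without reaching the fold threshold (log2 fold changes 0.74 and 0.73). Pcdh19, which acts together with N-cadherin, had 258 and 250 under DMSO, 64 and 64 under ET-3, and 86 and 79 under NT (-1.97 and -1.61, adjusted p = 2.21e-07 and 9.63e-07). Pcdh17 had 50 and 53 under DMSO, 18 and 21 under ET-3, and 21 and 13 under NT (-1.36 and -1.58). Both of these fell in all 4 treated libraries. Pcdh9 rose from 3 and 1 under DMSO to 15 and 12 under ET-3 and 15 and 24 under NT (2.35 and 2.82, adjusted p = 9.23e-04 and 2.90e-04).

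Pcdh1 had values of 515 and 548 under DMSO, 447 and 472 under ET-3, and 492 and 512 under NT, and Pcdh18 had 250 and 236, 185 and 197, and 257 and 217 in the same order. Neither was called, and the NT libraries of Pcdh18 lay on both sides of the controls. Pcdh8, Pcdh10, Pcdh11x, Pcdh15 and Pcdh20 were not tested and did not exceed 11.

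The clustered protocadherins lie in a single stretch of 821.7 kb on chromosome 18, at chr18:37020149-37841873. Each gene of the beta group is a separate coding exon, whereas the genes of the gamma group join a variable first exon to constant exons that all of them share. The 22 gamma genes share between 2116 and 4732 of their exon bases with another gene in the annotation. Because the authors left out reads that overlap several genes, the values of gamma genes would come from unshared parts only and are uncertain. Pcdhga10 had values between 17 and 44 although 0 of its exon bases are unshared in the annotation used here, so this does not hold for every gamma gene. Reads that fit several of the near-identical beta genes would also be missing. Of the 44 genes, 38 were tested. With ET-3, 16 were called down and 0 up (42.1% and 0%, against 14.9% and 6.62% of all tested genes). With NT, 11 were called down and 1 up (28.9% and 2.63%, against 13.2% and 7.3%). The median log2 fold change was -0.75 with ET-3 and -0.57 with NT, and it was negative for 37 and 31 of the 38. Most of these genes had few reads, and the NT count was 5 when libraries were scaled by their totals, 5 with a pseudocount of 5 and 3 when the libraries of each ligand were averaged into a single sample. The ET-3 count was 13, 11 and 9 under the same 3 settings. Over all tested genes, NT called 1658 of 13882, 1700 of 13921 and 1451 of 13921 down in these settings. With ET-3 the numbers were 1880 of 13882, 1894 of 13921 and 1659 of 13921. In these settings the NT share among the 38 clustered genes was thus near that of all tested genes. The ET-3 share stayed above it. Without the first DMSO library, 10 were called down with ET-3 and 5 with NT, and without the first NT library the NT count was 5.

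Beta genes made up most of the calls in the cluster. Summed over its 21 genes, the beta group had 683 and 638 under DMSO, 259 and 303 under ET-3, and 329 and 365 under NT. Of 17 tested, 10 were called down with ET-3 (58.8%, against 14.9% of all tested genes) and 9 under NT (52.9%, against 13.2%). Pcdhb9 alone was called up, with NT. Pcdhb22, the beta gene with the highest mean level per kb among those named by rule, had values of 96 and 95 under DMSO, 38 and 39 under ET-3, and 37 and 43 under NT (log2 fold changes -1.29 and -1.24, adjusted p = 1.01e-04 and 1.39e-04). Pcdhb19 had 60 and 46 under DMSO, 12 and 13 under ET-3, and 15 and 20 under NT (-1.99 and -1.55, adjusted p = 1.21e-04 and 6.99e-04). In both genes the treated libraries lay well below the controls.

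Pcdhb20 had 49 and 49 under DMSO, 18 and 20 under ET-3, and 19 and 27 under NT, and Pcdhb21 had 53 and 52, 19 and 21, and 25 and 23 in the same order, with log2 fold changes between -1.35 and -1.08. Pcdhb11 had 16 and 14, 5 and 2, and 5 and 6 (-1.91 and -1.3), and Pcdhb14 had 33 and 27, 6 and 13, and 17 and 12 (-1.64 and -1.01). The values of Pcdhb15 were the most scattered of these, with 29 and 15 under DMSO, 1 and 10 under ET-3, and 8 and 3 under NT (-2.22 and -1.87, adjusted p = 0.023 and 0.0488). The call of Pcdhb15 was lost in both comparisons when either DMSO or either NT library was left out, and Pcdhb11 and Pcdhb14 lost theirs with NT in the same 4 cases. Pcdhb14 also lost its ET-3 call without the first DMSO library, and Pcdhb15 without the first ET-3 library. Pcdhb20 lost its NT call without the first NT library. The overlap of Pcdhb21 and Pcdhb22 in the annotation could divide or remove reads between them.

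The position of a beta gene in the cluster went along with its change, in a division that was chosen after the values were seen and was not tested. From Pcdhb2 to Pcdhb10, over 119.7 kb, 0 of 6 tested genes were called down under either ligand, and the 9 genes summed to 91 and 113 under DMSO, 60 and 68 under ET-3, and 91 and 96 under NT. From Pcdhb11 to Pcdhb22, over the next 103.1 kb, 10 of 11 tested genes were called down with ET-3 and 9 under NT, and the 12 genes summed to 592 and 525 under DMSO, 199 and 235 under ET-3, and 238 and 269 under NT. The first stretch had lower values, with means of tested genes between 8.17 and 19.8 against 6.00 and 79.5 in the second. There Pcdhb5 was just short of a call with ET-3 by limma (log2 fold change -1.10, adjusted p = 0.0501). Under upper quartile scaling and under voom weights it was called down with ET-3. Pcdhb8 and Pcdhb10, not tested, were lower in all 4 treated libraries than in both controls. Without the filter on low values, both of them and Pcdhb6, also of the first stretch, were called down with ET-3 but not with NT. In that setting Pcdhb15, of the second stretch, lost its call under both ligands and Pcdhb14 its NT call. The contrast between the stretches thus depends in part on that filter. Pcdhb9, in the first stretch, had 7 and 7 under DMSO, 11 and 12 under ET-3, and 21 and 20 under NT, and rose with NT (log2 fold change 1.43, adjusted p = 0.00235) while the ET-3 value did not pass the test (0.64, adjusted p = 0.0912).

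**Figure D4:**
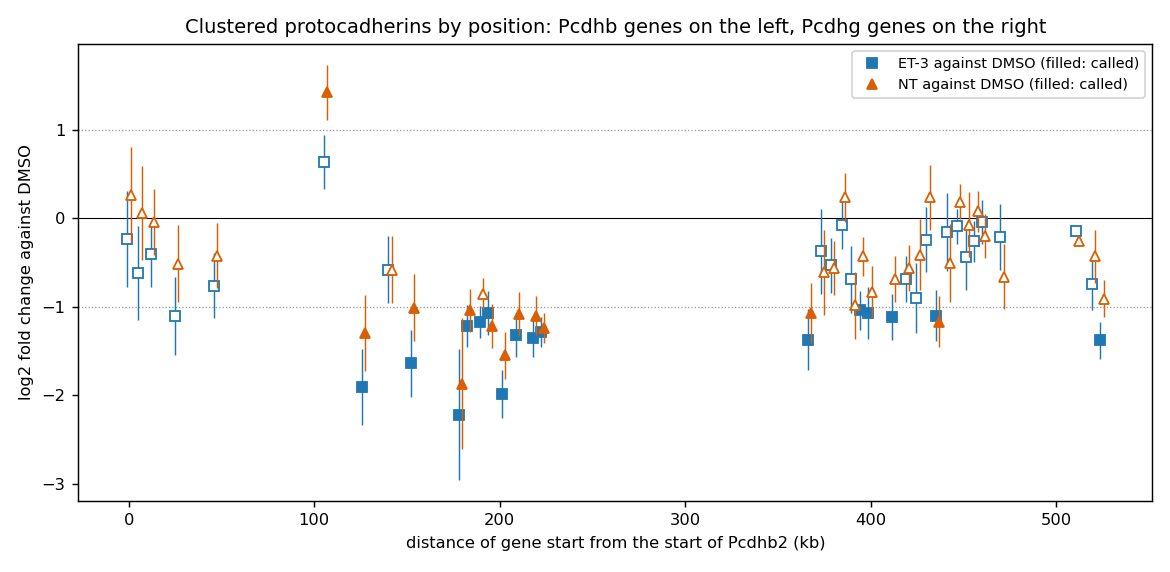
Log2 fold change against DMSO (vertical axis) of the 38 tested clustered protocadherins by the distance of the gene start from the start of Pcdhb2 in kb (horizontal axis). Squares are ET-3 and triangles NT, drawn slightly apart, filled where the gene was called, vertical bars are standard errors of the fit, and dotted lines mark log2 fold changes of -1 and 1. The filled points of the beta group lie between about 100 and 230 kb, and most gamma genes, on the right, lie between -1 and 0.

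The gamma genes were lower in sum, and their difference from the beta group was not tested. Their sum was 1720 and 1760 under DMSO, 1378 and 1367 under ET-3, and 1373 and 1403 under NT, and 6 of 21 were called down with ET-3 (28.6%, against 14.9% of all tested genes) and 2 under NT (9.52%, against 13.2%). More of the reads came from Pcdhgc3 than from the others together, with 963 and 1053 under DMSO, 942 and 882 under ET-3, and 843 and 843 under NT (log2 fold changes -0.14 and -0.26, adjusted p = 0.0422 and 0.00236). The ET-3 value of Pcdhgc3 passed the adjusted p under 4 of 15 alternatives, with log2 fold changes between -0.21 and -0.05. Without Pcdhgc3 the sum of the group was 757 and 707 under DMSO, 436 and 485 under ET-3, and 530 and 560 under NT. Pcdhga1 had 29 and 29 under DMSO, 8 and 14 under ET-3, and 11 and 16 under NT, and was called down under both ligands (-1.37 and -1.07), although both calls were lost without either DMSO library and the NT call also without the first NT library. Pcdhga11 had 47 and 33, 43 and 34, and 39 and 30, and Pcdhgb6 had 45 and 63, 49 and 51, and 60 and 62, so neither differed beyond its spread. The only alpha group gene in the table, Pcdha12, had a value above 0 in 1 library.

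Genes for proteins that work beside these receptors were taken from lists of partners that were put together by function. Over all tested genes, 6.62% were called up and 14.9% down with ET-3, and 7.3% up and 13.2% down with NT. Of 10 tested basement membrane and matrix partners, 2 were called down and 0 up under each ligand, with medians of -0.31 and -0.40. Nid2, a nidogen that links laminin to collagen IV, had 1385 and 1409 under DMSO, 55 and 57 under ET-3, and 54 and 53 under NT (log2 fold changes -4.62 and -4.68), while Nid1 was higher by 0.36 and 0.37. Bcam, a surface receptor for Lama5, had 147 and 146 under DMSO, 33 and 39 under ET-3, and 46 and 48 under NT (-2.0 and -1.62). Dag1, which encodes the laminin receptor dystroglycan, had 1798 and 1943, 1009 and 987, and 950 and 958, just short of the fold threshold (-0.90 and -0.97).

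None of 21 tested integrin adaptors and kinases was called under either ligand by limma, with medians of 0.09 and -0.08, although at the adjusted p alone 9 were higher and 7 lower with ET-3 and 6 higher and 8 lower with NT. Over all tested genes, 30.6% were higher and 33.2% lower with ET-3 at that threshold, and 29.7% were higher and 32.5% lower with NT. Vcl, which encodes vinculin, had the values 2339 and 2538 under DMSO, 1479 and 1485 under ET-3, and 1460 and 1379 under NT. Tln1, which encodes the integrin activator talin, had 3138 and 3359, 3501 and 3425, and 3115 and 3023, with log2 fold changes of 0.09 and -0.08. Of 14 tested catenins and cadherin partners, 1 was called up and 1 down under each ligand, with medians of -0.26 and -0.25. Nectin1, an adhesion molecule of adherens junctions, rose from 239 and 256 under DMSO to 512 and 491 under ET-3 and 555 and 492 under NT (1.02 and 1.08), and Arvcf, a catenin, fell from 109 and 132 to 57 and 61 under ET-3 and 61 and 50 under NT (-1.01 and -1.11). Ctnnb1, which encodes beta-catenin, had 1808 and 1979 under DMSO, 2109 and 2022 under ET-3, and 1748 and 1662 under NT.

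Markers of other cell types moved in different directions. The sum of 7 smooth muscle and pericyte markers was 3207 and 3650 under DMSO. It lay between 752 and 799 under ET-3 and between 878 and 928 under NT. Most of the DMSO sum was Notch3 (1397 and 1773), Abcc9 (851 and 835) and Cspg4 (610 and 612). After treatment Notch3 lay between 284 and 409, Abcc9 between 0 and 4 and Cspg4 between 433 and 509. Pdgfrb and Rgs5 also fell, while Myh11 and Kcnj8 did not exceed 4 in a library. Of 8 endothelial markers, 5 had a row, and their sum was 64 and 62 under DMSO and between 96 and 125 after treatment, mostly through Tek, whereas Cdh5 stayed at 5 or below. Of the 4 tested, 2 were called up with ET-3 and 3 with NT. Vwf was called down under both ligands, with 38 and 52 under DMSO, 14 and 26 under ET-3, and 13 and 21 under NT. Of 8 fibroadipogenic markers, 5 had a row, with sums of 1624 and 1788 under DMSO and between 992 and 1151 after treatment. Most of that sum was Col3a1, with 1420 and 1577 under DMSO and between 922 and 1061 after treatment, while Ly6a went from 27 and 18 to between 37 and 52. Of 6 Schwann cell markers, 5 had a row, with sums of 160 and 184 under DMSO and between 641 and 713 after treatment, mostly through Ngfr, while Foxd3 did not exceed 3. The part of such cells in the changes given above was not tested.

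Few of these genes differed between the ligands. When NT was set against ET-3 directly, 0 of the 83 tested members were called by limma, against 0.079% of all tested genes. An unadjusted p under 0.05 was found for 15 of the 83 members and for 2765 of all 13921 tested genes. At the adjusted p alone, 3 members passed, against 2.69% of all tested genes. Itga7 was lower with NT than with ET-3 (log2 fold change -0.23, SE 0.05, adjusted p = 0.0499), as was Itgb1 (-0.27, SE 0.05, adjusted p = 0.042), which encode the partners of the muscle laminin receptor. Lama2 was higher with NT (0.32, SE 0.06, adjusted p = 0.0379). These 3 genes were picked by this same test, so the way their libraries separate adds no support. In all 3 genes the NT libraries did not overlap with the ET-3 libraries, and all 3 lost the adjusted p when any single library was left out.

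The libraries of each ligand resembled each other closely. The mean chi-square per gene between the 2 libraries of a group was 0.891 for ET-3 and 0.953 for NT, near the 1 expected of sampling alone, and 1.448 for DMSO. The libraries were kept as separate samples, since each group holds only 1 such pair. With each treated pair averaged into a single sample, 2 members instead of 7 were called up with ET-3 and 4 instead of 9 with NT, and those no longer called in both comparisons were Itgb7, Cdh4, Cdh17, Cdh22 and Pcdh9. The calls of Cdh6 and Itga2 upward and of Itga4, Itgb6, Lamb2 and Cdh11 downward remained under that setting.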

How the data were processed

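RNA-seq libraries of MuSCs cultured for 5 days fall into 3 groups of 2 by their labels, DMSO, ET-3 and NT. According to the methods of the study, the authors aligned single-end reads to mm10 (GRCm38) with STAR and counted exonic reads per gene with featureCounts, leaving out reads on several genes or regions. The submitters' processing notes name Trimmomatic 0.38, STAR 2.7.7a, featureCounts 1.6.5 and DESeq2 1.30.0, whereas the methods name other trimming tools and versions and another library kit, and a legend of the study describes means of 3 samples. The deposited values are a read signal, whole numbers that equal counts times a factor per library (0.781 to 1.1915, fitted to how often each number occurs), after rounding. In 3 libraries with factors above 1, between 17 and 32 whole numbers up to 200 cannot arise from a count, and 0 genes had them.

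Because the values were scaled, limma 3.58.1 (lmFit, contrasts and eBayes with trend, R 4.3.3) took the place of a count test. All 6 libraries entered 1 fit on log2(value + 1) without a block, 5022 genes with a mean under 5 were left out, and Benjamini-Hochberg adjustment ran over 13921 genes, two-sided. Log2 fold changes had a standard error of 0.098 at the median. Exon lengths came from GENCODE vM21, which matched 18920 of 18943 genes, and promoter windows from RefSeq (GRCm38.p6). Protein sequences were not used here, and single values of some listed genes are not reported here.

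Values in every library are given for members called the same way under both ligands (up to 8 per family by mean absolute log2 fold change), for the 3 members per family with the highest mean level per kb, for members past the adjusted p between the ligands, and for the main laminins, laminin receptors and N-cadherin of muscle. The members and lists were chosen with earlier results of these data known. Replicate numbers did not pair the libraries: the correlations of same-numbered deviations were -0.008, -0.07 and -0.022. Alternatives were other scalings, pseudocounts and filters, voom weights, a replicate block, single libraries left out and averaged treated pairs.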

Additional observations from a re-analysis of the deposited data

Results flagged for a closer look

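The log2 fold change of NT against ET-3 was -0.23 for Itga7, -0.27 for Itgb1 and 0.32 for Lama2. These 3 were singled out because the direct comparison of the ligands passed the adjusted p (0.0499, 0.042 and 0.0379 by limma), so that their responses to ET-3 and NT differed in size by that test. Both NT libraries lay below both ET-3 libraries for Itga7 and Itgb1 and above them for Lama2. This adds no support, since the genes were picked by the same values. Of 15 alternatives each, 4, 4 and 5 kept the adjusted p at or under 0.05, with adjusted p between 0.00248 and 0.712 over the 3 genes and log2 fold changes between -0.27 and -0.19 for Itga7, between -0.31 and -0.22 for Itgb1 and between 0.25 and 0.40 for Lama2. None of the 3 passed in any fit that left out a single library.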

How the results depend on the processing

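With treated pairs averaged, ET-3 called 2 members up and NT called 4, and without the fold threshold these counts were 13 and 14, with 39 members lower with NT and 3 members between the ligands. The other alternatives left the counts over all members within 1.5 times of those reported, whereas the count of clustered protocadherins called down moved from 16 to between 9 and 19 with ET-3 and from 11 to between 3 and 11 with NT. With 1 library left out, ET-3 called between 6 and 7 members up and between 23 and 33 down, NT called between 8 and 9 up and between 19 and 25 down, and the ligands differed in 0. The replicate block gave 7 up and 32 down with ET-3 and 9 up and 23 down with NT, and since the numbers do not pair the libraries this is given only for completeness.

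Of 1455 alternatives computed for 97 results of 47 named members, 1310 kept direction and side of the threshold, 131 kept the direction only, 3 passed the threshold anew and 11 reversed. The reversed values were all of genes not called. For Pcdhga11 with ET-3 they were 0.05 (library total), 0.01 (upper quartile), 0.21 (without the first DMSO library) and 0.12 (without the second ET-3 library), and leaving out 1 library gave values from -0.29 to 0.21. With NT, leaving out 1 library gave values from -0.45 to 0.05 for Pcdhga11. The same gave -0.33 to 0.15 with ET-3 and -0.05 to 0.43 with NT for Pcdhgb6, and -0.16 to 0.08 with NT for Pcdh18, where the library total gave 0.07 and omission of the first DMSO library 0.00. For Pcdh1 with NT the library total gave 0.03. Causes were not tested. Scaling to the library total moved the median log2 fold change of all genes to 0.079 with ET-3 and 0.099 with NT. At this depth 20 members, with values of 14 or less, could not be tested.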
